A study of Mus musculus with 4 samples.

Results

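Prg2/Prg3 cells were the cells of a sorted fetal liver progenitor population that carried Prg2 and Prg3 transcripts with few of the granule transcripts of neutrophils. A cell was counted when its Prg2 and Prg3 UMIs (unique molecular identifiers, each standing for a captured transcript) summed to at least 3 and its Camp, Ngp and Lcn2 UMIs to under 5. Of 9960 cells, 76 met both conditions, and all 76 were wild type. These 5 genes chose the cells, so their values are a description and were not tested. Another 8 cells, 5 in library F and 3 in library I, passed the Prg2 and Prg3 threshold but not the Camp, Ngp and Lcn2 limit and were kept out.

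Eosinophils are granulocytes whose granules hold major basic protein, which Prg2 encodes, and its homologue, which Prg3 encodes. Mice need the transcription factors GATA1 and C/EBP-epsilon to make eosinophils, and C/EBP-epsilon also for the secondary granules of neutrophils, which hold the products of Camp, Ngp and Lcn2. Gata2 encodes a related factor of stem cells, multipotent progenitors, mast cells and basophils, and the -77 enhancer upstream of it drives it in myelo-erythroid progenitors.

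Transcripts of single cells were counted with 10x Genomics Chromium libraries from E14.5 fetal livers of C57Bl/6J mice, sorted as Lin-Sca-cKit+Cd34+, that is, lineage-negative, Sca1-negative cells with Kit and CD34. The enhancer-deleted group (Gata2-77-/-) had 2 samples and the wild-type group had 2, and the number of embryos behind a sample was not given in the sources used here. The deposited cells carried library letters, A and B for enhancer-deleted and F and I for wild type, which are not tied to sample numbers. The table held 3624 genes, and a gene outside this panel was not measured.

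Libraries A and B held 2235 and 2745 cells, with medians of 7492 and 7087 UMIs per cell, and libraries F and I held 3042 and 1938 cells, with medians of 12826.5 and 17437.5. Over whole libraries Gata2 stood at 7.48 and 6.73 CPM (depth-scaled counts, here of panel UMIs) in A and B, against 26.3 and 23.2 CPM in F and I. Xist, expressed in female cells, stood near 0 in A and F and at 410.2 CPM in B and 492 CPM in I, so the libraries of each genotype differed in sex. No cell had the same counts as another cell. The files used here gave no cell barcodes, so barcodes shared between libraries could not be counted.

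Of 12 eosinophil genes that were looked for, only Prg2 and Prg3 were in the panel, and both belonged to the rule. The cells are therefore called by their rule genes, since the name eosinophil could not be checked against other markers. Hdc and Cebpe, also proposed as markers, were detected in 68 and 75 of the 76 cells.

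Prg2 (ENSMUSG00000027073.5, chr2:84980461-84983632) and Prg3 (ENSMUSG00000027072.13, chr2:84988215-84993886) are protein-coding neighbours on the plus strand of GRCm38 in the GENCODE annotation, 4582 bases apart with 0 annotated genes between them. Their annotated transcripts share no stretch longer than 23 bases. The 300 bases around the start are shown for Prg3, the more widely detected gene of the pair, for Cpa3, a mast cell and basophil gene that some of the cells carried, and for Camp, which marks the neutrophil-like cells set against them. The sequences are from RefSeq (GRCm38.p6), with 250 bases before and 50 after the start, at chr2:84987965-84988264 on the plus strand for Prg3, chr3:20242132-20242431 on the minus strand for Cpa3 and chr9:109849407-109849706 on the minus strand for Camp. Capitals mark GATAA, a core that GATA factors bind, and TTNNGNAA, a core that C/EBP factors bind, searched on both strands as GATAA or TTATC and as TTNNGNAA or TTNCNNAA.
Prg3: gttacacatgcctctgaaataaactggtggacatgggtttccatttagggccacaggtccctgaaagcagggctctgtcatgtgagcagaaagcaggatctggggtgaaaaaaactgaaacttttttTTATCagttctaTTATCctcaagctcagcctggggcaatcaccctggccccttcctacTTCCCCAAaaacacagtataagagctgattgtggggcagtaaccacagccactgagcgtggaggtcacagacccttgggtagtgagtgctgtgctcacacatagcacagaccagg
Cpa3: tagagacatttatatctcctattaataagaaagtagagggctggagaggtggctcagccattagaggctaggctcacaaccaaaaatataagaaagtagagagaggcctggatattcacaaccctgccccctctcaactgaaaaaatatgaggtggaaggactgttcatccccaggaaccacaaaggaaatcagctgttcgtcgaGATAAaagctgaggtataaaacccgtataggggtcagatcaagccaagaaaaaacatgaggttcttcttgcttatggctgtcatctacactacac
Camp: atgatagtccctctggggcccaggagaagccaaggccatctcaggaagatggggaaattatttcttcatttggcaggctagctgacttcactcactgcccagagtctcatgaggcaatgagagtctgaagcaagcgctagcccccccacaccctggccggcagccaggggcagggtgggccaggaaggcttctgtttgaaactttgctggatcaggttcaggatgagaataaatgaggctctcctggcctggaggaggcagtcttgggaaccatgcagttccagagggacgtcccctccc

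The Prg3 window held TTATC at 123 and 111 bases before the start and TTCCCCAA, a TTNNGNAA match on the other strand, at 65 bases before it. The Cpa3 window held GATAA at 45 bases before the start and no TTNNGNAA match, and the Camp window held neither set of letters. Of 32851 mouse promoter windows of the same length, 25.4% held GATAA and 40.7% held TTNNGNAA, so a match of either kind is common.

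Prg2/Prg3 cells were found in the wild-type libraries alone. They numbered 0 of 2235 cells in library A, which allows a share of up to 0.134%, and 0 of 2745 cells in library B, which allows up to 0.109%. In library F they were 44 of 3042 cells, or 1.45% (95% exact binomial interval 1.05 to 1.94%), and in library I 32 of 1938 cells, or 1.65% (1.13 to 2.32%). The mean share was 0% in the enhancer-deleted libraries and 1.55 ± 0.145% in the wild-type libraries (SD, n = 2 each). The genotypes did not overlap. An exact two-sided permutation test over libraries gave p = 0.333, the smallest that 2 against 2 libraries allow, so it could not decide. The cells were proposed with this genotype difference known, so the shares are a description. Intervals and limits cover counting error only.

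**Figure D1:**
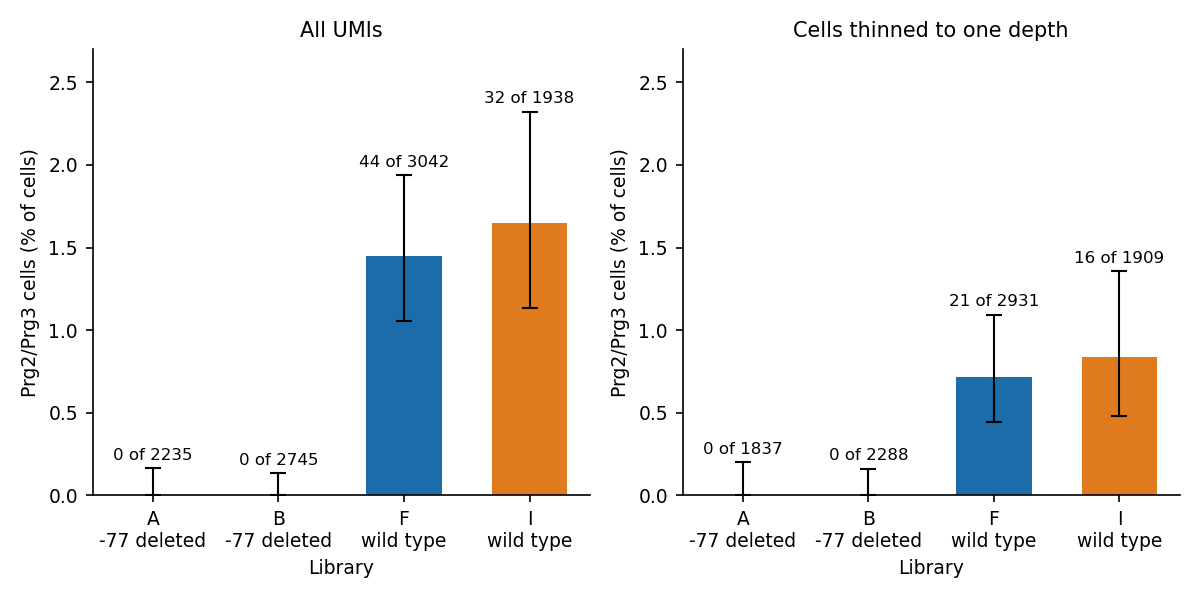
Share of Prg2/Prg3 cells in each library, in percent of its cells, with 95% exact binomial intervals as bars, for all UMIs (left) and after every cell was thinned to 4346 UMIs (right). The enhancer-deleted libraries hold 0 such cells in both panels, against 44 and 32 cells with all UMIs and 21 and 16 after thinning in the wild-type libraries.

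The threshold is in UMIs and the wild-type cells were deeper, so every cell was also thinned to 4346 UMIs, with 995 shallower cells left out. At that depth 0 of 1837 cells in library A and 0 of 2288 in library B met the rule, against 21 of 2931 in library F (0.716%) and 16 of 1909 in library I (0.838%). At least 1 Prg2 or Prg3 UMI remained in 0.218% of the cells of library A and 0.0874% of library B, against 2.56% of library F and 2.88% of library I. Both measures differed between the genotypes at matched depth. They count the same rule genes, so they are a description too.

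Without thinning, library A held 1 Prg2 UMI and 8 Prg3 UMIs, library B held 0 Prg2 UMIs and 7 Prg3 UMIs, and no enhancer-deleted cell held more than 1. In the wild-type libraries 10 cells of F and 6 of I sat on the threshold with 3 UMIs, and 11 cells of F and 16 of I fell just short with 2. A further 128 cells of F and 71 of I held 1. Outside the Prg2/Prg3 cells, a Prg3 UMI was found in 7.42% (F) and 10.3% (I) of the cells with at least 5 Cebpe UMIs described below, at medians of 14230.5 and 18890.5 UMIs per cell. In erythroid cells with at least 3 Klf1 UMIs, which should lack the gene, it was found in 1 of 99 cells of F and 0 of 58 of I, at medians of 12682 and 14167 UMIs per cell.

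Within the 76 cells Prg3 was nearly always present and Prg2 was not. Prg3 was detected in 75 cells and Prg2 in 45, with both in 44, Prg3 alone in 31 and Prg2 alone in 1. The sum of the 2 genes had a median of 8 UMIs and reached 274 in library F and 119 in library I. All 25 cells with a sum of at least 20 carried Prg2, as did 12 of 23 cells with 6 to 19 and 8 of 28 cells with 3 to 5. Among the cells with at least 20, Prg2 exceeded Prg3 in 12 of 14 cells of library F and in 4 of 11 cells of library I.

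Prg2 was less evenly spread between the wild-type libraries than Prg3. The Prg2/Prg3 cells summed to 964 Prg2 UMIs in library F and 299 in library I, and to 554 and 476 Prg3 UMIs. In library F, 4 cells held 632 of the 964 Prg2 UMIs. The cells held 93.3% and 89.5% of the Prg2 UMIs of libraries F and I and 83.7% and 84.1% of the Prg3 UMIs. Of the 76 cells, 64 had no Camp, Ngp or Lcn2 UMI, and the highest sum of these genes was 3.

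**Figure D2:**
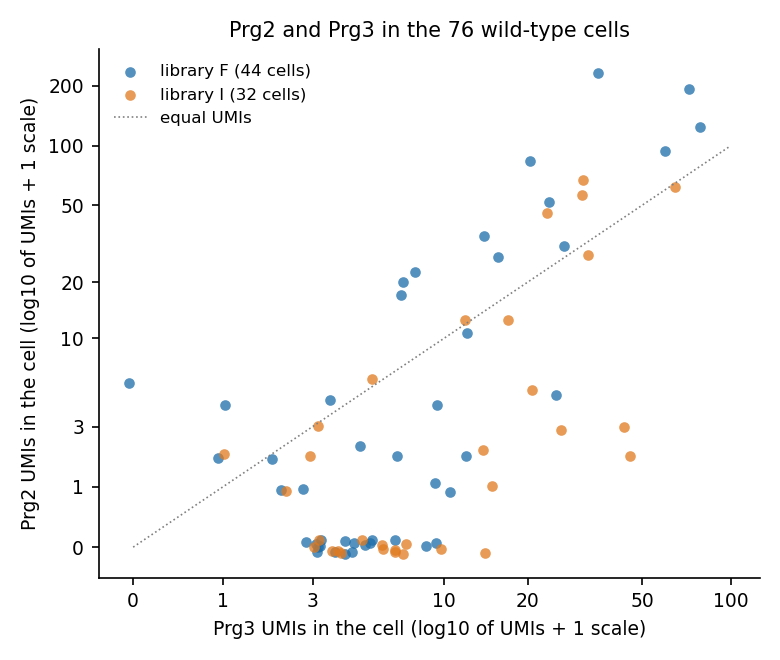
Prg2 UMIs against Prg3 UMIs in each of the 76 cells, on log10 of UMIs + 1 scales with a small random offset so that cells with equal values can be seen. Each point is a cell of library F or I, the dotted line marks equal UMIs, and the points at 0 Prg2 UMIs are the 31 cells with Prg3 alone.

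The Prg2/Prg3 cells had medians of 12705 (F) and 15731.5 (I) UMIs per cell, against 12826.5 and 17437.5 over all cells of these libraries, and 2 of 76 lay above the 95th percentile of their library. No doublet caller was run. Of the 76 cells, 17 also held at least 3 UMIs of Cpa3 and Mcpt8, genes of mast cells and basophils, and Cpa3 gave most of these UMIs in each of the 17. A reduced set, used below as an alternative, left out the cells with at least 3 such UMIs and those above the 95th percentile of depth together and kept 33 cells of F and 24 of I, cells with 1 or 2 such UMIs among them. Gata1 was detected in 20 of the cells, Gata2 in 16 and the erythroid factor gene Klf1 in 4.

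The other wild-type cells were sorted into classes by UMI thresholds, which give ranges and not cell types. Camp-high cells (Camp, Ngp and Lcn2 summing to at least 5 UMIs) numbered 199 in library F and 58 in library I. Cpa3/Mcpt8 cells (at least 3 UMIs of these genes) numbered 167 and 156, Cebpe-high cells (at least 5 Cebpe UMIs and in neither class before) 512 and 350, and the remaining cells 2115 and 1339. UMIs were summed per library and class, and edgeR's quasi-likelihood fit set the Prg2/Prg3 cells against each class with the library as a block. Levels by class are CPM of the panel after TMM scaling, given for library F and then library I. Fold changes are log2 values of Prg2/Prg3 cells over the other class with their standard error (SE), and p-values are adjusted by Benjamini-Hochberg over all 3607 genes tested. Each class has 2 sums. With the block, a p-value reflects how much the differences between classes vary between both wild-type libraries, with information shared across genes. This spread may be technical.

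Hdc, which encodes histidine decarboxylase, the enzyme that makes histamine, was higher in Prg2/Prg3 cells than in each other class. It stood at 263 and 265.5 CPM in these cells, against 75.3 and 84.4 CPM in Camp-high cells, 107 and 85.5 CPM in Cebpe-high cells, 115 and 93.4 CPM in Cpa3/Mcpt8 cells and 19.2 and 16.2 CPM in the remaining cells. Both Prg2/Prg3 values lay above every other one. The log2 fold change was 1.81 (SE 0.14, edgeR adjusted p = 6.59e-09) over Camp-high cells and 1.45 (SE 0.11, edgeR adjusted p = 2.61e-08) over Cebpe-high cells. Over Cpa3/Mcpt8 cells and the remaining cells it was 1.34 (SE 0.12, edgeR adjusted p = 1.18e-07) and 3.90 (SE 0.13, edgeR adjusted p = 4.07e-15).

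At 4346 UMIs per cell, an Hdc UMI was found in 24 of 41 and 22 of 32 Prg2/Prg3 cells of F and I, against 49 of 189 and 11 of 58 Camp-high cells and 6 of 98 and 6 of 57 Klf1-high erythroid cells. Without thinning the shares were 86.4% and 93.8% of Prg2/Prg3 cells, 44.2% and 55.2% of Camp-high cells and 14.1% and 17.2% of Klf1-high cells.

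Cebpe stood at 972 and 682 CPM in Prg2/Prg3 cells and 953 and 884 CPM in Camp-high cells. These values overlapped, with a log2 fold change of -0.15 (SE 0.25, edgeR adjusted p = 0.727). Cebpe stood at 136 and 154 CPM in Cpa3/Mcpt8 cells and was higher in Prg2/Prg3 cells by 2.48 (SE 0.26, edgeR adjusted p = 0.00549). The Cebpe-high and remaining cells were chosen by this gene, so their 609.7 and 506 CPM and 49.2 and 29.1 CPM are a description.

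**Figure D3:**
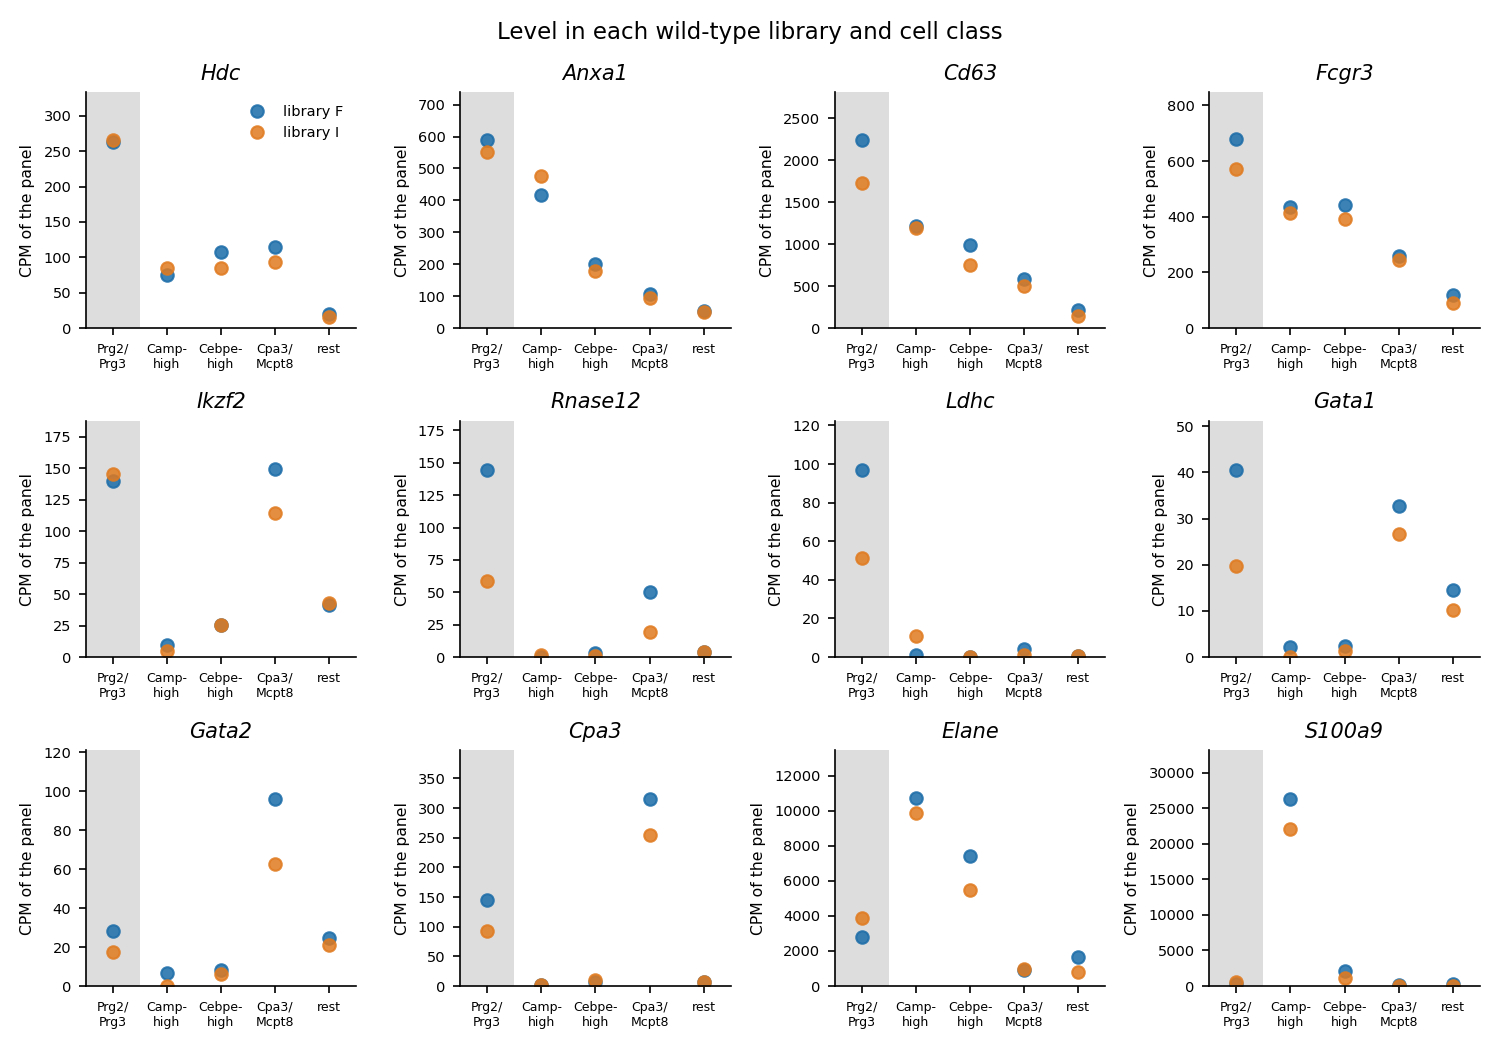
Levels of 12 genes in CPM of the panel after TMM scaling, in each wild-type library (F and I) and cell class, with Prg2/Prg3 cells shaded at the left. Each point is the sum over the cells of a class in a library. Hdc, Anxa1, Cd63 and Fcgr3 are highest in the Prg2/Prg3 cells, Gata2 and Cpa3 in the Cpa3/Mcpt8 cells, and Elane and S100a9 in the Camp-high cells.

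Against Camp-high cells, Prg2/Prg3 cells were higher in some progenitor, GATA factor and secretory pathway genes and lower in late neutrophil genes. Of 3607 genes, 946 (26.2%) were called, 462 higher (12.8%) and 484 lower (13.4%). With every cell thinned to 4346 UMIs the count was 420.

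Rnase12, a gene of the ribonuclease A family, stood at 145 and 59.0 CPM in Prg2/Prg3 cells, against 0 and 1.53 CPM in Camp-high cells. The Camp-high level rested on 1 UMI, and the ratio of pooled CPM was 301.5 (95% counting interval 53.0 to 12013). Cpa3, which encodes mast cell carboxypeptidase A3, stood at 145 and 92.4 CPM in Prg2/Prg3 cells, against 1.08 and 1.53 CPM in Camp-high cells. That level rested on 3 UMIs, and the ratio was 116 (95% counting interval 38.7 to 569). Both genes were called, with edgeR adjusted p of 1.63e-07 and 2.9e-10. The Camp-high cells held 0 Rnase12 UMIs in F and 1 in I, so the size of its difference within a library could not be given.

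Ikzf2, which encodes the zinc finger factor Helios, stood at 139 and 145.5 CPM in Prg2/Prg3 cells, against 9.21 and 4.61 CPM in Camp-high cells, a log2 fold change of 4.16 (SE 0.31, edgeR adjusted p = 4.37e-09), with 3.88 in F and 4.91 in I. Ldhc, which encodes a lactate dehydrogenase best known from testis, stood at 97.0 and 51.1 CPM in Prg2/Prg3 cells, against 1.08 and 10.8 CPM in Camp-high cells, a log2 fold change of 4.42 (SE 0.81, edgeR adjusted p = 0.000321). Camp-high cells held 2 Ldhc UMIs in F and 7 in I, and the log2 difference was 6.18 in F and 2.22 in I. Adgrg1, an adhesion receptor gene, Tmem176b, Cnn3, which encodes a calponin, Vat1 and Fut8, which encodes a fucosyltransferase, were higher by 2.33 to 2.58 on the log2 scale, each with both values above both Camp-high values. Of these, Tmem176b had 2.57 in F and 3.16 in I and Fut8 1.97 in F and 2.99 in I. In the remaining cells Adgrg1, Tmem176b and Cnn3 stood above both Prg2/Prg3 values, and Vat1 and Fut8 stood below both.

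Cd34, which encodes an antigen used in the sort, stood at 122 and 108 CPM in Prg2/Prg3 cells, against 16.8 and 16.9 CPM in Camp-high cells, a log2 fold change of 2.75 (SE 0.27, edgeR adjusted p = 1.91e-06). Of 10 measured stem and progenitor genes, 4 were higher and 0 lower, with a median log2 fold change of 1.99, against 0.00 over all genes tested. The others were the transcription factor genes Sox4, Meis1 and Hoxa9. Sox4 was higher by 3.03 (SE 0.54, edgeR adjusted p = 0.000227), with 2.80 in F and 0 Camp-high UMIs in I. Meis1 and Hoxa9 rested on 2 and 1 Camp-high UMIs, with ratios of 16.2 (95% counting interval 3.60 to 149) and 35.0 (95% counting interval 5.26 to 1487), and neither was called after thinning (edgeR adjusted p = 0.213 and 0.0807). Hoxa9 was not called in the reduced set either (0.0547). Against the remaining cells, 6 of the 10 stem and progenitor genes were lower and 0 higher, with a median log2 fold change of -1.41.

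Gata1 stood at 40.6 and 19.7 CPM in Prg2/Prg3 cells, against 2.17 and 0 CPM in Camp-high cells, a log2 fold change of 4.35 (SE 0.71, edgeR adjusted p = 8.42e-05). Gata2 stood at 28.2 and 17.7 CPM in Prg2/Prg3 cells, against 6.50 and 0 CPM in Camp-high cells, a log2 fold change of 2.35 (SE 0.59, edgeR adjusted p = 0.005). Both genes separated the classes at low levels. Both genes were at 0 UMIs in the Camp-high cells of library I, and the log2 differences within library F were 4.08 for Gata1 and 2.08 for Gata2. In the reduced set Gata1 was called at 4.30 (edgeR adjusted p = 0.000491), and Gata2 was not, at 1.71 (edgeR adjusted p = 0.14). Only 2 Prg2/Prg3 cells of library F held at least 3 Gata2 UMIs, with 7 and 3. These cells also held 6 and 5 Cpa3 UMIs, so the reduced set leaves them out.

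At 4346 UMIs per cell, a Gata1 UMI was found in 9 of 41 (F) and 1 of 32 (I) Prg2/Prg3 cells, against 0 of 189 and 0 of 58 Camp-high cells. Without thinning it was found in 15 of 44 and 5 of 32, against 3 of 199 and 0 of 58. Both libraries held such Prg2/Prg3 cells, and at this depth library I held 1. In Klf1-high erythroid cells, which use the gene, the thinned shares were 45 of 98 and 29 of 57.

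Of 14 measured regulators linked to eosinophils, 3 were higher and 4 lower than in Camp-high cells, with a median log2 fold change of -0.21. The higher ones were Gata1, Gata2 and Myb, a progenitor factor gene at 325 and 293 CPM in Prg2/Prg3 cells, against 171 and 152 CPM in Camp-high cells (log2 fold change 0.92, SE 0.10, edgeR adjusted p = 5.94e-07). Id2, which encodes an inhibitor of helix-loop-helix factors, had the largest difference downward, at 5.29 and 5.90 CPM in Prg2/Prg3 cells, against 186 and 134 CPM in Camp-high cells. Gfi1 and Xbp1 of this list also stood lower. Gfi1 was at 33.5 and 35.4 CPM in Prg2/Prg3 cells, against 60.2 and 50.7 CPM in Camp-high cells. Xbp1 was at 129 and 114 CPM, against 183 and 173.5 CPM. Spi1, which encodes the myeloid factor PU.1, stood at 422 and 417 CPM in Prg2/Prg3 cells, against 559 and 529.6 CPM in Camp-high cells, a log2 fold change of -0.38 (SE 0.08, edgeR adjusted p = 0.000809) that lost its call after thinning (0.0551).

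Of 5 measured mast cell and basophil genes, Cpa3 and Hdc were higher and 0 were lower. Mcpt8, a basophil protease gene, was at 12.3 and 3.93 CPM in Prg2/Prg3 cells and 3.79 and 4.61 CPM in Camp-high cells and was not called. The summed level of the 5 genes, before scaling, was 602 and 503 CPM in Prg2/Prg3 cells, against 164 and 170.4 CPM in Camp-high cells and 975 and 638 CPM in Cpa3/Mcpt8 cells. In the reduced set 681 genes were called against Camp-high cells.

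Of 21 measured genes of the endoplasmic reticulum and secretion, 10 were higher and 1 lower than in Camp-high cells. Xbp1, a factor gene of this list, stood lower, at 129 and 114 CPM in Prg2/Prg3 cells, against 183 and 173.5 CPM in Camp-high cells. Calr, which encodes the chaperone calreticulin, stood at 2319 and 2692 CPM in Prg2/Prg3 cells, against 1005 and 1181 CPM in Camp-high cells, a log2 fold change of 1.19 (SE 0.06, edgeR adjusted p = 1.11e-11). Hsp90b1, Pdia6 and Ssr2, genes of a chaperone, a disulfide isomerase and a translocon-associated protein, were higher by 0.70, 0.58 and 0.51, Pdia6 without a call after thinning (edgeR adjusted p = 0.0895). The summed level of the list, before scaling, was 11146 and 11606 CPM in Prg2/Prg3 cells, against 6980.3 and 7855 CPM in Camp-high cells.

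Late neutrophil genes ran the other way. Of 14 measured genes of this list outside the rule, 13 were lower and 1 higher, with a median log2 fold change of -3.71. Camp-high cells were chosen by Camp, Ngp and Lcn2 of this list. Lower levels of genes expressed together with these are therefore partly set by the choice of cells. S100a9, which encodes a calgranulin, stood at 233 and 576 CPM in Prg2/Prg3 cells, against 26320 and 22080 CPM in Camp-high cells, a log2 fold change of -5.87 (SE 0.83, edgeR adjusted p = 0.0101), with -6.82 in F and -5.26 in I. S100a8, its partner, stood at 489 and 1089 CPM in Prg2/Prg3 cells, against 27550 and 28290 CPM in Camp-high cells, a log2 fold change of -5.14 (SE 0.62, edgeR adjusted p = 0.00579), with -5.82 in F and -4.70 in I.

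Fcnb, a ficolin gene, the stefin genes Gm5483 and BC100530, and Wfdc21 fell, with log2 fold changes of -6.01 to -4.66. Each of these folds moved by over 1.5 times when a library was left out: Fcnb had -6.81 in F and -4.01 in I, Gm5483 -6.95 in F and -5.30 in I, BC100530 -5.70 in F and -4.11 in I and Wfdc21 -4.77 in F and -5.75 in I. Stefin genes form a cluster of similar copies on chromosome 16, so the split of reads between them is uncertain. The gene that was higher was Anxa1, which encodes annexin A1, at 589 and 552.5 CPM in Prg2/Prg3 cells, against 416 and 477.5 CPM in Camp-high cells, a log2 fold change of 0.39 (SE 0.09, edgeR adjusted p = 0.00225).

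Of 9 measured genes of the primary granule list, which neutrophil precursors express earlier, 3 were lower and 0 higher. Mpo, which encodes myeloperoxidase, stood at 2155 and 2432 CPM in Prg2/Prg3 cells, against 3747 and 3703 CPM in Camp-high cells, a log2 fold change of -0.70 (SE 0.08, edgeR adjusted p = 1.48e-05). Prtn3, which encodes proteinase 3, stood at 4415 and 4233 CPM in Prg2/Prg3 cells, against 9898 and 9727 CPM in Camp-high cells, a log2 fold change of -1.18 (SE 0.08, edgeR adjusted p = 1.24e-06). Igsf6, a gene of the immunoglobulin superfamily and not of a granule protein, was the other. Elane, which encodes neutrophil elastase, stood at 2788 and 3901 CPM in Prg2/Prg3 cells and 10720 and 9855 CPM in Camp-high cells, and these values did not overlap. Its log2 fold change of -1.60 (SE 0.40, edgeR adjusted p = 0.053) missed the threshold. Elane was called at a like size without the block, at -1.62 (edgeR adjusted p = 0.0259), and by DESeq2's Wald test, at -1.61 (DESeq2 adjusted p = 0.00274), and at -2.05 (edgeR adjusted p = 0.0195) with at least 5 Prg2 and Prg3 UMIs per cell.

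All 3 measured genes of lipid mediator synthesis fell: Alox5ap fell by 0.61, Lta4h fell by 0.95 and Ptgs1 fell by 1.10 on the log2 scale, with Lta4h not called after thinning (edgeR adjusted p = 0.104). Of 10 measured receptor genes, 1 was higher and 2 lower. Fcgr3, which encodes a low-affinity IgG receptor, stood at 678 and 570.2 CPM in Prg2/Prg3 cells, against 434 and 414.5 CPM in Camp-high cells, a log2 fold change of 0.57 (SE 0.09, edgeR adjusted p = 4.3e-05). Fcer1g, the Fc receptor gamma chain gene, fell by 0.95, and Csf2ra, a GM-CSF receptor chain gene, fell by 1.69.

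**Figure D4:**
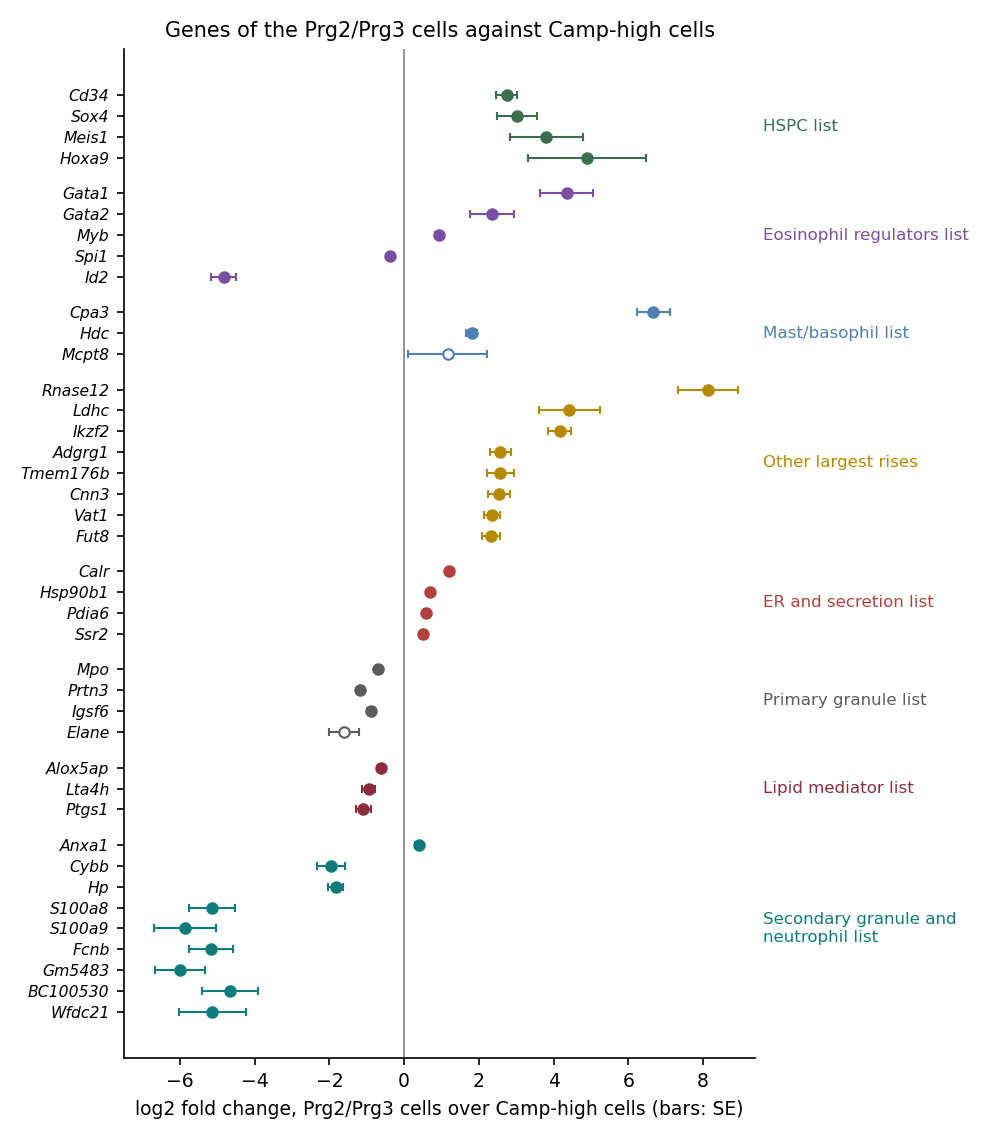
Log2 fold change of Prg2/Prg3 cells over Camp-high cells for named genes, grouped by gene list, with the standard error as bars. Filled points passed the adjusted p threshold of 0.05 in edgeR and open points (Elane and Mcpt8) did not. Rnase12 and Cpa3 lie furthest right and Gm5483 and S100a9 furthest left of the genes drawn, and the values of Rnase12, Cpa3, Meis1 and Hoxa9 rest on 3 or fewer Camp-high UMIs.

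Some cell cycle genes were lower than in Camp-high cells, 5 of 18 S phase genes and 3 of 18 G2/M genes, with 0 higher in either list. The G2/M share lay near the 13.4% of all genes that were called lower. Mki67, a proliferation marker gene, stood at 72.3 and 74.7 CPM in Prg2/Prg3 cells, against 196 and 138 CPM in Camp-high cells, a log2 fold change of -1.27 (SE 0.17, edgeR adjusted p = 8.26e-06). Slbp, which encodes the histone stem-loop binding protein, Mcm5 and Mcm6, genes of the replicative helicase, and Ccnb2, a cyclin gene, fell by 0.63, 0.57, 0.49 and 0.44. None of these 4 was called after thinning (edgeR adjusted p = 0.0913, 0.245, 0.531 and 0.582), and Mcm5, Mcm6 and Ccnb2 were not called without the block either (0.105, 0.129 and 0.107). Ccnb2 was not called by DESeq2 (0.0784) or in the reduced set (0.27), nor Mcm6 in the reduced set (0.0841). With at least 5 Prg2 and Prg3 UMIs per cell, Mcm5 and Mcm6 were not called (0.0951 and 0.284). Of 10 mitochondrial transcripts, 9 were lower, and their share of panel UMIs was 3.33% and 3.41% in Prg2/Prg3 cells, against 3.86% and 3.85% in Camp-high cells. Its part in the other differences was not tested.

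Fewer genes separated the Prg2/Prg3 cells from Cebpe-high cells. Of 3607 genes, 101 (2.80%) were called, 68 higher (1.89%) and 33 lower (0.915%). The count was 52 after thinning and 32 without the library block. Cebpe-high cells, like the remaining cells, held under 3 Cpa3 and Mcpt8 UMIs by definition, while 17 of the 76 Prg2/Prg3 cells held at least 3. The comparison is thus uneven for genes of Cpa3/Mcpt8 cells. In the reduced set, which leaves those 17 out, 84 genes were called, 64 of them also called here with the same sign.

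Ldhc stood at 97.0 and 51.1 CPM in Prg2/Prg3 cells, against 0.274 and 0 CPM in Cebpe-high cells, where it rested on 2 UMIs. The ratio was 522 (95% counting interval 139.9 to 4384), and the gene was called with edgeR adjusted p = 2.17e-06. Rnase12 stood at 145 and 59.0 CPM in Prg2/Prg3 cells, against 3.42 and 1.02 CPM in Cebpe-high cells, a log2 fold change of 5.50 (SE 0.42, edgeR adjusted p = 2.09e-08). Ikzf2 stood at 139 and 145.5 CPM in Prg2/Prg3 cells, against 25.2 and 25.8 CPM in Cebpe-high cells, a log2 fold change of 2.48 (SE 0.19, edgeR adjusted p = 3.55e-08).

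In class sums these 3 genes thus separated the Prg2/Prg3 cells from Camp-high and Cebpe-high cells alike. Ldhc was detected without thinning in only 11 of 44 (F) and 8 of 32 (I) Prg2/Prg3 cells. Rnase12 stood at 50.4 and 19.7 CPM in Cpa3/Mcpt8 cells, above its Cebpe-high levels. Ikzf2 did not separate them from Cpa3/Mcpt8 cells, where it stood at 149 and 115 CPM, overlapping the Prg2/Prg3 values. Anxa1 stood at 589 and 552.5 CPM in Prg2/Prg3 cells, against 201 and 178 CPM in Cebpe-high cells, a log2 fold change of 1.59 (SE 0.08, edgeR adjusted p = 2.67e-11). Perp, a p53 target gene of cell adhesion, and Syne1, which encodes the nuclear envelope protein nesprin-1, were higher by 1.65 and 1.78, Syne1 without a call after thinning (edgeR adjusted p = 0.122) or without the block (0.0662).

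Gata1 stood at 40.6 and 19.7 CPM in Prg2/Prg3 cells, against 2.46 and 1.31 CPM in Cebpe-high cells, a log2 fold change of 3.99 (SE 0.51, edgeR adjusted p = 4.22e-05). Gata2 stood at 28.2 and 17.7 CPM in Prg2/Prg3 cells, against 8.34 and 6.41 CPM in Cebpe-high cells, a log2 fold change of 1.64 (SE 0.44, edgeR adjusted p = 0.0494). Gata2 was not called after thinning, at 1.63 (edgeR adjusted p = 0.313), without the block, at 1.65 (edgeR adjusted p = 0.268), or in the reduced set, at 1.00 (edgeR adjusted p = 0.471). Myb and Fcgr3 were higher by 0.59 and 0.58, Fcgr3 without a call when the block was left out (edgeR adjusted p = 0.0662).

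Of 13 monocyte genes, F13a1 was lower than in Cebpe-high cells and 12 were not called. The 13 log2 fold changes were all below 0, from -7.67 to -0.24, with a median of -2.73. In Prg2/Prg3 cells 5 of these genes in library F and 6 in library I had 0 UMIs. F13a1, which encodes a subunit of coagulation factor XIII, stood at 31.8 and 37.4 CPM in Prg2/Prg3 cells, against 116 and 133 CPM in Cebpe-high cells, a log2 fold change of -1.85 (SE 0.22, edgeR adjusted p = 3.09e-05). Clec5a, a myeloid lectin receptor gene, Ncf1, a subunit gene of the phagocyte oxidase, Mgst2, a glutathione transferase gene, and Tifab fell, with log2 fold changes of -1.39 to -1.26. Of these, Ncf1 and Tifab were not called after thinning (edgeR adjusted p = 0.464 and 0.219), and Mgst2 was not called without the block (0.185). Prtn3 was the 1 gene of 9 in the primary granule list that was called, and it fell by 0.70. Cebpe-high cells share the limit of under 5 Camp, Ngp and Lcn2 UMIs. Against them, of 14 late neutrophil genes outside the rule, 1 (Anxa1) was higher, 0 were lower and 13 were not called. The 14 log2 fold changes ran from -3.26 to 1.59 with a median of -1.12. A gene without a call was therefore not shown to be equal in both classes.

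Of 21 endoplasmic reticulum and secretion genes Calr alone was called, at 2319 and 2692 CPM in Prg2/Prg3 cells and 1739 and 2322 CPM in Cebpe-high cells, a log2 fold change of 0.31 (SE 0.06, edgeR adjusted p = 0.00308) that lost its call without the block (0.603) and in the reduced set (0.073). Of 18 S phase genes, 18 G2/M genes, 10 mitochondrial transcripts and 10 stem and progenitor genes, 0 were called by edgeR in either direction.

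Against Cpa3/Mcpt8 cells, Prg2/Prg3 cells were higher in granulocyte genes and lower in Gata2. Of 3607 genes, 671 (18.6%) were called, 419 higher (11.6%) and 252 lower (6.99%). The count was 279 after thinning and 400 without the library block. Gata2 stood at 28.2 and 17.7 CPM in Prg2/Prg3 cells, against 96.1 and 62.7 CPM in Cpa3/Mcpt8 cells, a log2 fold change of -1.77 (SE 0.31, edgeR adjusted p = 0.000298). Gata1 stood at 40.6 and 19.7 CPM in Prg2/Prg3 cells and 32.8 and 26.6 CPM in Cpa3/Mcpt8 cells, and the values overlapped (log2 fold change 0.01, SE 0.36, edgeR adjusted p = 0.989).

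Of 9 genes of the primary granule list, 8 were higher and 0 lower than in Cpa3/Mcpt8 cells, with a median log2 fold change of 1.11. Mpo stood at 2155 and 2432 CPM in Prg2/Prg3 cells, against 1138 and 1441 CPM in Cpa3/Mcpt8 cells, and Igsf6 at 205 and 183 CPM, against 71.7 and 77.1 CPM. Of 21 endoplasmic reticulum and secretion genes, 18 were higher and 0 lower. Tmed3, a vesicle transport gene, stood at 729 and 781 CPM in Prg2/Prg3 cells, against 175 and 153 CPM in Cpa3/Mcpt8 cells, a log2 fold change of 2.21 (SE 0.10, edgeR adjusted p = 8.09e-10). Of 81 ribosomal protein genes, 52 were higher and 0 lower, by at most 0.35 on the log2 scale.

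Outside the rule genes Prg2 and Prg3, the 5 named genes with the largest differences upward were Ldhc, by 4.97, Syne1, by 3.86, B4galt6, a glycosphingolipid synthesis gene, by 2.98, Pglyrp1, a peptidoglycan recognition gene, by 2.55, and Nucb2, by 2.55. Syne1 stood at 77.6 and 53.1 CPM in Prg2/Prg3 cells, against 3.20 and 5.33 CPM in Cpa3/Mcpt8 cells (SE 0.43, edgeR adjusted p = 1.93e-06), with a log2 difference of 4.49 in F and 3.26 in I. Anxa1 stood at 589 and 552.5 CPM in Prg2/Prg3 cells, against 106.5 and 95.3 CPM in Cpa3/Mcpt8 cells, a log2 fold change of 2.51 (SE 0.10, edgeR adjusted p = 4.98e-14).

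Among the lower genes, Ctla2a, a protease inhibitor gene, stood at 24.7 and 15.7 CPM in Prg2/Prg3 cells, against 121 and 93.4 CPM in Cpa3/Mcpt8 cells, a log2 fold change of -2.39 (SE 0.33, edgeR adjusted p = 0.000137). Fabp5, which encodes a fatty acid binding protein, stood at 115 and 119.9 CPM in Prg2/Prg3 cells, against 374 and 349 CPM in Cpa3/Mcpt8 cells, a log2 fold change of -1.62 (SE 0.11, edgeR adjusted p = 2.33e-09). Ifitm3, an interferon-induced gene, fell by 1.58, without a call when the block was left out (edgeR adjusted p = 0.161). Of 10 stem and progenitor genes, 2 were lower: Sox4 fell by 1.40 and Cd34 fell by 0.69, and 0 were higher, with Cd34 not called after thinning (edgeR adjusted p = 0.123).

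Against the remaining cells, Prg2/Prg3 cells were higher in granule and secretory genes and lower in monocyte and erythroid ones. By definition the remaining cells held under 5 Cebpe UMIs and lay outside the Camp-high and Cpa3/Mcpt8 classes. Of the 76 Prg2/Prg3 cells, 67 held at least 5 Cebpe UMIs. Higher levels of granule and other genes expressed together with Cebpe are therefore partly set by the choice of cells. Of 3607 genes, 1049 (29.1%) were called, 598 higher (16.6%) and 451 lower (12.5%), and the count was 479 after thinning. Cd63, which encodes a tetraspanin of granule membranes, stood at 2238 and 1724 CPM in Prg2/Prg3 cells, against 213 and 141 CPM in the remaining cells, a log2 fold change of 3.49 (SE 0.12, edgeR adjusted p = 2.86e-07). Anxa1 stood at 589 and 552.5 CPM in Prg2/Prg3 cells, against 53.5 and 51.4 CPM in the remaining cells, a log2 fold change of 3.45 (SE 0.09, edgeR adjusted p = 2.02e-17). Fcgr3 was higher by 2.56 (SE 0.08, edgeR adjusted p = 1.44e-15).

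Of 21 endoplasmic reticulum and secretion genes 20 were higher than in the remaining cells. Of 9 genes of the primary granule list 8 were higher, and of 3 lipid mediator genes 3, with 0 lower in any of these lists. Of 13 monocyte genes 12 were lower. Irf8, which encodes a factor of monocyte and dendritic cell fate, stood at 3.53 and 9.83 CPM in Prg2/Prg3 cells, against 190.3 and 163 CPM in the remaining cells, a log2 fold change of -4.76 (SE 0.85, edgeR adjusted p = 0.0165) that lost its call in the reduced set (0.0502). The log2 difference of Irf8 was -5.65 in F and -4.02 in I. Csf1r, the M-CSF receptor gene, fell by 1.88, without a call after thinning (edgeR adjusted p = 0.129).

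Of 12 erythroid genes 6 were lower and 1, Gata1, higher. Hbb-bs, a beta globin gene, stood at 30.0 and 49.2 CPM in Prg2/Prg3 cells, against 1494 and 2366 CPM in the remaining cells, a log2 fold change of -5.81 (SE 1.35, edgeR adjusted p = 0.041) that lost its call without the block (0.0595) and in the reduced set (0.056). Gata1 stood at 40.6 and 19.7 CPM in Prg2/Prg3 cells, against 14.51 and 10.3 CPM in the remaining cells, a log2 fold change of 1.29 (SE 0.37, edgeR adjusted p = 0.0126). It was not called after thinning, at 1.29 (edgeR adjusted p = 0.175), or without the block, at 1.30 (edgeR adjusted p = 0.0596). Gata2 stood at 28.2 and 17.7 CPM in Prg2/Prg3 cells and 24.7 and 20.9 CPM in the remaining cells, and the values overlapped (log2 fold change 0.02, SE 0.36, edgeR adjusted p = 0.979).

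The Prg2/Prg3 cells were then compared among themselves by whether they held a Prg2 UMI. Library F had 27 cells with Prg2 and 17 without, and library I 18 and 14, too few for a test by the limit of 20 cells per class and library. The levels that follow, in CPM before scaling, are a description, and the genes were chosen after their values were seen. Depth differed, with medians of 11373 (F) and 15731.5 (I) UMIs per cell with Prg2, against 18071 and 16421.5 without. Of 1493 genes with at least 100 CPM in the higher set, 3 were at least 2-fold higher with Prg2 in both libraries and 3 at least 2-fold lower.

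The higher genes were Ldhc, Syne1 and Rnase12. Ldhc stood at 178 and 87.5 CPM with Prg2, against 3.67 and 4.37 CPM without. Syne1 stood at 119 and 91.0 CPM with Prg2, against 29.3 and 4.37 CPM without. Rnase12 stood at 247 and 77.0 CPM with Prg2, against 25.7 and 35.0 CPM without. Rnase12 was detected in 22 of 44 (F) and 11 of 32 (I) Prg2/Prg3 cells without thinning.

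The lower genes were Elane, S100a8 and Cldn15, a claudin gene. Elane stood at 1719.9 and 2603 CPM with Prg2, against 3879 and 5423 CPM without. S100a8 stood at 240.5 and 665 CPM with Prg2, against 748 and 1592 CPM without, and Cldn15 at 56.0 and 91.0 CPM with Prg2, against 136 and 197 CPM without. Not every neutrophil gene shared this direction in library I: Gm5483 stood at 16.5 and 154 CPM with Prg2, against 47.7 and 17.5 CPM without, and BC100530 at 112 and 644 CPM with Prg2, against 249 and 559.8 CPM without.

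Some levels ran with the summed Prg2 and Prg3 UMIs. Of 55 genes summed over 3 steps of these UMIs, 7 were higher at each step in both libraries, 4 were lower at each step in both, 2 ran in opposite directions in the libraries and 42 did none of these. The 55 were named genes and others picked by hand, and no count over the whole panel was made. The steps are cut on the rule genes, so these counts are a description. In cells with 3 to 5, 6 to 19 and at least 20 such UMIs, Elane stood at 3978, 1992 and 853 CPM in library F and at 6611, 2751 and 2583 CPM in library I. The 9 genes of the primary granule list summed to 22053, 16318 and 11008 CPM in library F and to 23793, 18025 and 14658 CPM in library I. Both were lower at each step in both libraries. Of 15 gene lists, this was the 1 that was lower at each step in both. The eosinophil regulator, erythroid and ribosomal protein lists, 3 of the 15, were higher at each step in both. Another 2 lists ran in opposite directions and 9 did none of these.

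Cd63 stood at 1775.5, 2119 and 3166 CPM over the same steps in library F and 1458, 1503 and 2195 CPM in library I. Ikzf2 stood at 90.1, 157 and 217 CPM in library F and 64.8, 135 and 231 CPM in library I, and Cebpe at 791, 1041 and 1223 CPM in library F and 544, 674 and 800.5 CPM in library I. These 3 genes were higher at each step in both libraries. The list of secondary granule and neutrophil genes, rule genes included, ran in opposite directions, at 3584, 3183 and 2027 CPM in library F and 4414, 5542 and 6610.0 CPM in library I. Gm5483 did the same, at 43.4, 22.5 and 14.0 CPM in library F and 0, 30.0 and 263 CPM in library I, and S100a8 stood at 634, 539 and 105 CPM in library F and 765, 1648 and 663 CPM in library I.

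Median depth moved with the steps, at 17528, 11984 and 9388.5 UMIs per cell in library F and 17718, 16258.5 and 15546 in library I, and its part in these levels was not tested.

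**Figure D5:**
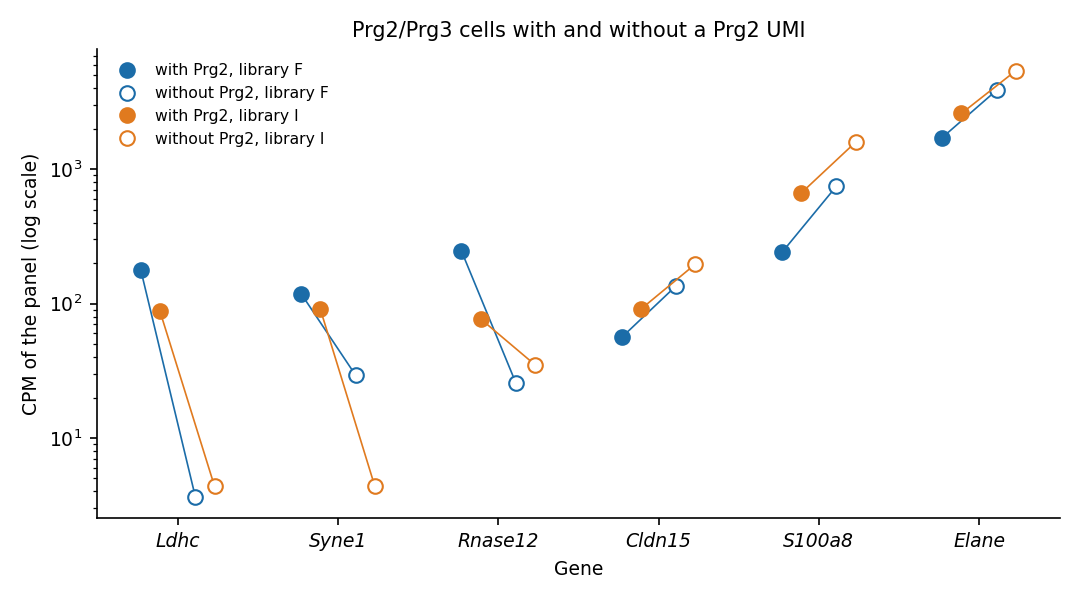
Levels in CPM of the panel before scaling, on a log scale, of the 6 genes that differed at least 2-fold in both libraries between Prg2/Prg3 cells with a Prg2 UMI (filled, left of each pair) and without (open, right). Ldhc, Syne1 and Rnase12 are higher with Prg2 and Cldn15, S100a8 and Elane lower, in library F and in library I.

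The enhancer-deleted libraries had 0 Prg2/Prg3 cells, so gene levels in these cells could not be set against the wild type. Over whole libraries before scaling, Hdc stood at 3.50 and 3.66 CPM in A and B, against 45.2 and 40.5 CPM in F and I with the Prg2/Prg3 cells taken out. Ldhc stood at 0.356 and 0 CPM in A and B, against 0.885 and 0.719 CPM in F and I outside the Prg2/Prg3 cells, which held 61.1% and 52.0% of the Ldhc UMIs of F and I.

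The other granulocyte ranges also held few enhancer-deleted cells. Libraries A and B held 3 and 1 Camp-high cells, 12 and 12 Cebpe-high cells and 13 and 31 Cpa3/Mcpt8 cells, with 0 Prg2 or Prg3 UMIs in any of them. The thresholds are in UMIs, cells of A and B were shallower, and these counts were not made at matched depth. In F and I, 4.19% to 10.3% of the cells of these ranges in a library held a Prg3 UMI, so 0 in so few cells says little. In bulk sums over a library, fewer cells of a kind and less RNA per cell cannot be told apart.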

How the data were processed

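Cells sorted as Lin-Sca-cKit+Cd34+ were profiled with the 10x Genomics Chromium platform, per the labels' protocols. The authors deposited raw UMI counts of 3624 genes in 9960 cells, with the gene symbols and, for every cell, its genotype and a library letter, all in matching order. Cell Ranger 2.0.2, Seurat 2.3.4 and the build mm10 are named in the submitters' processing notes. How genes and cells were chosen is not given in the sources used here, and a panel chosen for variable genes would change CPM and shares of the total.

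The members and gene lists were chosen with earlier results of these data known. UMIs were summed per wild-type library and class (10 sums) and fitted with edgeR 4.0.16 (R 4.3.3): filterByExpr, TMM, the quasi-likelihood test with a library term (4 residual degrees of freedom) and Benjamini-Hochberg adjustment over 3607 genes, with a threshold of 0.05. The library was the replicate block because the classes of a library share its cells' source. Total counts ran over 576256 and 514478 UMIs for the Prg2/Prg3 cells, which limits precision for low genes. Shares carry exact binomial intervals (Clopper-Pearson, scipy 1.17.1), and a count of 0 is given the share that 3 counts allow.

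Named genes were Prg2, Prg3, Hdc, Cebpe, Camp, Ngp, Lcn2, Gata1 and Gata2, the 10 highest and 10 lowest called genes against Camp-high cells (5 and 5 in the other comparisons) with the same sign in both libraries and at least 50 CPM in the higher class, and up to 4 genes with the smallest p of each list. Genes described outside this rule were chosen after their values were seen. Alternatives were DESeq2 1.42.0 and its size factors, no low-count filter, no library term, other thresholds, cells thinned to 4346 UMIs (the 10th percentile) and leaving out a library. A further one left out Prg2/Prg3 cells with at least 3 Cpa3 and Mcpt8 UMIs or a depth above the 95th percentile. That reduced set does not replace a doublet caller.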

Additional observations from a re-analysis of the deposited data

How the results depend on the processing

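The count of called genes stayed within 1.5 times of its value under DESeq2, its size factors, no low-count filter, at least 5 Prg2 and Prg3 UMIs, and without the Prg2/Prg3 cells that held at least 3 Cpa3 and Mcpt8 UMIs or a depth above the 95th percentile. With cells thinned to 4346 UMIs it was 420 against Camp-high, 52 against Cebpe-high, 279 against Cpa3/Mcpt8 and 479 against the remaining cells. Of the calls after thinning, 77.4% were higher against Cpa3/Mcpt8 cells (62.4% before) and 68.5% against the remaining cells (57.0% before). Without the replicate block (the library term) it was 32 against Cebpe-high and 400 against Cpa3/Mcpt8 cells, and within 1.5 times for the other 2. Among the named genes in the 4 comparisons, 38 calls were lost after thinning and 28 without the block, the cause was not tested, and thinning also leaves fewer UMIs. The share of Prg2/Prg3 cells, enhancer-deleted minus wild-type, was -1.55 percentage points. It was -2.07 at 2 UMIs or more, -1.14 at 5 or more, -1.71 with no Camp, Ngp and Lcn2 limit, -0.777 with the rule applied after thinning and -2.57 for at least 1 UMI after thinning. Leaving out a library gave -1.65 to -1.45. No paired analysis was possible because the library letters carry no sample numbers that tie an enhancer-deleted library to a wild-type one. The fit of Prg2/Prg3 cells with against without Prg2, with its alternatives, was not run because each library held under 20 cells in at least 1 set. Of 184 called results of named genes, 30 had a fold that moved over 1.5 times without library F or without library I, and 11 of these rested on a sum of 0 UMIs in a library. Without library F or I the log2 difference from Camp-high cells was 2.22 or 6.18 for Ldhc and -4.01 or -6.81 for Fcnb. With 76 cells in 2 libraries, genes of a few CPM rest on few UMIs.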
